A study of Canis lupus familiaris with 12 samples.

Results

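Dog peripheral blood mononuclear cells (PBMCs, the lymphocytes and monocytes of blood) that had been cultured with 5-aminolevulinic acid (ALA) were compared with untreated PBMCs of the same numbered set. The members are the 3 libraries whose titles name ALA and no other agent, and the 3 whose titles name neither ALA nor concanavalin A, 6 of the 12 libraries of the study. The ALA cultures had received ALA at 1.0 mM, and both groups were harvested after 24 h. Both groups share their source and medium: cells of healthy, specific pathogen-free male beagles kept as blood donors, isolated on a density gradient and grown in RPMI1640 with 10% fetal bovine serum and 2-mercaptoethanol. The other 6 libraries received concanavalin A (ConA, a lectin that stimulates T cells) at 0.5 µg/ml with or without ALA. They were fitted in the same model, so they also bear on which genes were kept, on the fitted fold changes and on the spread. A test of a difference uses them as well. Each group holds libraries numbered 1, 2 and 3. Whether 1, 2 and 3 are different dogs is not said in the labels; the p-values therefore reflect only how these libraries vary, and that variation may be technical.

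ALA is the first committed precursor of heme. Cells normally make it in mitochondria with ALA synthase, and a chain of enzymes that includes ALAD, UROS, UROD, CPOX, PPOX and FECH turns it into heme, which represses ALAS1, the ALA synthase of most tissues. ALA added from outside enters without that step, by carriers that include the oligopeptide transporters SLC15A1 and SLC15A2. Heme is broken down by heme oxygenase (HMOX1), whose gene is held off by the heme sensor BACH1 and turned on by NRF2, the transcription factor of the oxidative stress response.

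Libraries held 15144586 to 17943837 exon reads with ALA and 15131294 to 17962226 without. Genes with at least 10 reads numbered 12449 to 12917 with ALA and 12531 to 12810 in untreated cells. Mitochondrially encoded genes took 3.59, 11.8 and 16.5% of exon reads in ALA libraries 1, 2 and 3, against 3.98, 12.7 and 13.1% in untreated ones. Intron reads made up 34.1, 43.3 and 39.5% of gene reads with ALA, against 32.7, 39.7 and 36.2% in untreated cells, and were higher with ALA in 3 of 3 numbers (exact sign-flip permutation test, 2-sided, p = 0.25, the smallest that 3 numbers allow). Markers of T cells and B cells were present in all 6 libraries. The monocyte marker list, summed, reached 2998, 906 and 842 CPM (read counts scaled to library size) with ALA, against 1703, 1150 and 1033 CPM in untreated cells. ALA library 1 thus stood apart on this list.

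ALA changed few genes beyond the spread. Of 13358 genes tested 6 rose and 0 fell (0.0449%), at a Benjamini-Hochberg adjusted p under 0.05 in edgeR's quasi-likelihood test with the library number as a block. The 6 were the growth arrest genes GADD45A and GADD45G, the cell junction adaptor AFDN, the collagen chain COL9A2, the sterol enzyme MSMO1_1 and C6H7orf50. At an unadjusted p under 0.05 there were 837 genes (6.27%), of which 447 were higher (3.35%) and 390 lower (2.92%). Without the block no gene was called and 155 reached an unadjusted p under 0.05 (1.16%). The biological coefficient of variation was 0.217 with the block and 0.422 without. Fitted to the 6 libraries alone, with the block, 12734 genes were tested, 0 were called by edgeR and 1037 had an unadjusted p under 0.05. The calls thus rest on a fit that includes the ConA libraries. With 1 library left out at a time, the count was 0 without ALA 1, ALA 3 or ConA with ALA 1, and 1 without ALA 2 or untreated 1. It was 2 without ConA with ALA 3, 3 without ConA with ALA 2, 15 without untreated 3, and 6 or 7 without any other.

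**Figure D1:**
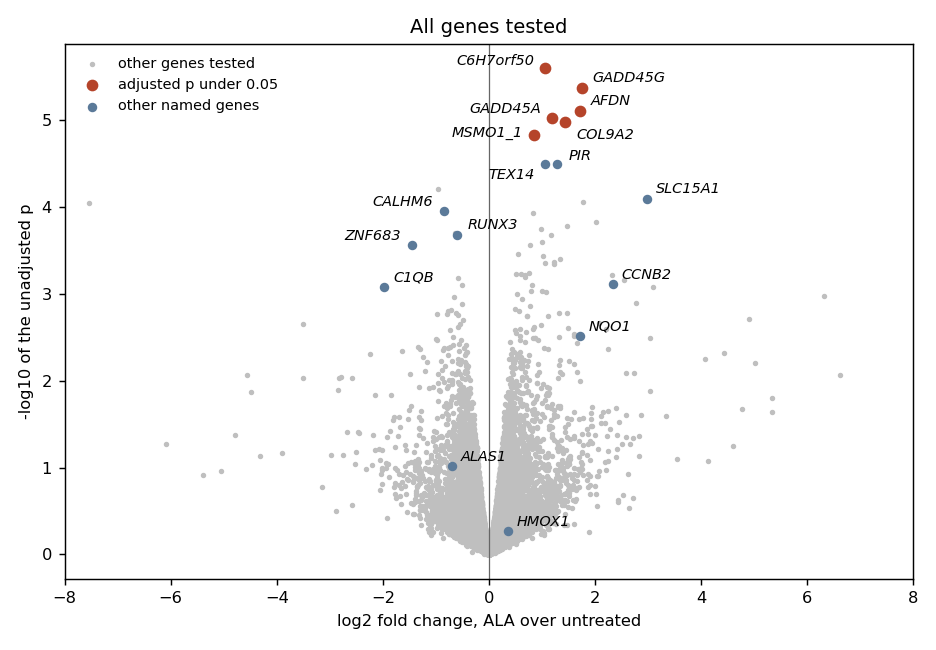
Log2 fold change (ALA over untreated, x axis) against -log10 of the unadjusted p (y axis) for all 13358 genes tested. The 6 genes with an adjusted p under 0.05, in red, all lie right of 0; other genes named in the text are in blue.

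GADD45A and GADD45G encode small nuclear proteins induced by DNA damage and other stress, which slow the cell cycle and activate stress kinases. GADD45A, on CanFam3.1 chromosome 6 from 77393036 to 77396618 (minus strand, 8 annotated exons), had 136, 226 and 177 CPM in ALA cultures 1, 2 and 3, against 37.8, 134 and 88.5 CPM in untreated cultures. Each ALA culture was above every untreated one. Its log2 fold change was 1.19 ± 0.18 (adjusted p = 0.0281), and the log2 ratios by number were 1.84, 0.75 and 1.00. Here and below ± is the SE from the fitted model, not the spread of the 3 numbers. GADD45G, on chromosome 1 from 96744985 to 96746520 (minus strand, 5 exons), had 19.7, 42.1 and 23.0 CPM with ALA, against 4.32, 17.7 and 6.22 CPM in untreated cultures. It was higher in 3 of 3 numbers, most in number 1, and the groups did not overlap. Its log2 fold change was 1.75 ± 0.25 (adjusted p = 0.028). Intron reads of GADD45A were higher as well, 37.4, 26.1 and 14.7 CPM with ALA against 9.32, 12.1 and 8.03 in untreated cells. With intron reads included its fold change was 1.12 ± 0.19 and the call was lost (adjusted p = 0.07). GADD45B, the third member of the family and named after its values were seen, had a log2 fold change of −0.19 ± 0.24 (adjusted p = 0.962).

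AFDN encodes afadin, which ties nectin adhesion molecules to actin. The gene lies on chromosome 1 from 55435472 to 55535543 (plus strand, 37 exons) and had 16.3, 11.97 and 24.4 CPM with ALA, against 5.71, 2.72 and 7.97 CPM in untreated cultures. The groups did not overlap, and the log2 fold change was 1.71 ± 0.26 (adjusted p = 0.0281). Its intron reads also differed in this direction in each number, at 15.4, 15.0 and 20.2 CPM with ALA against 3.38, 5.88 and 13.3 in untreated cells.

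COL9A2 encodes a chain of type IX collagen, a cartilage protein. It lies on chromosome 15 from 2646982 to 2661552 (plus strand, 31 exons) and had 12.8, 20.6 and 12.9 CPM with ALA, against 6.48, 5.88 and 4.19 CPM in untreated cultures (log2 fold change 1.44 ± 0.22, adjusted p = 0.0281). Most of its reads were intronic, and these did not move with the exon reads: 85.1, 137 and 94.2 CPM with ALA and 87.9, 134 and 142 in untreated cells. When intron reads were included, the fold change was −0.17 (adjusted p = 0.946). C6H7orf50, on chromosome 6 from 15726076 to 15883451 (plus strand, 18 exons), showed the same split. Its exon reads were 30.7, 39.2 and 30.9 CPM with ALA against 16.1, 18.8 and 13.7 CPM in untreated cells (1.05 ± 0.15, adjusted p = 0.028). Its intron reads were 181, 240 and 188 CPM with ALA against 211, 214 and 169 in untreated cells, and with these included the fold change was 0.05 (adjusted p = 0.99). The C6H7orf50 interval overlaps 7 other annotated genes, 2 of them on its strand, and whether counting used strand is not given in the sources used here, so reads of the 8 cannot be fully told apart by position; 100% of the C6H7orf50 exon reads were unique in the deposited counts.

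**Figure D2:**
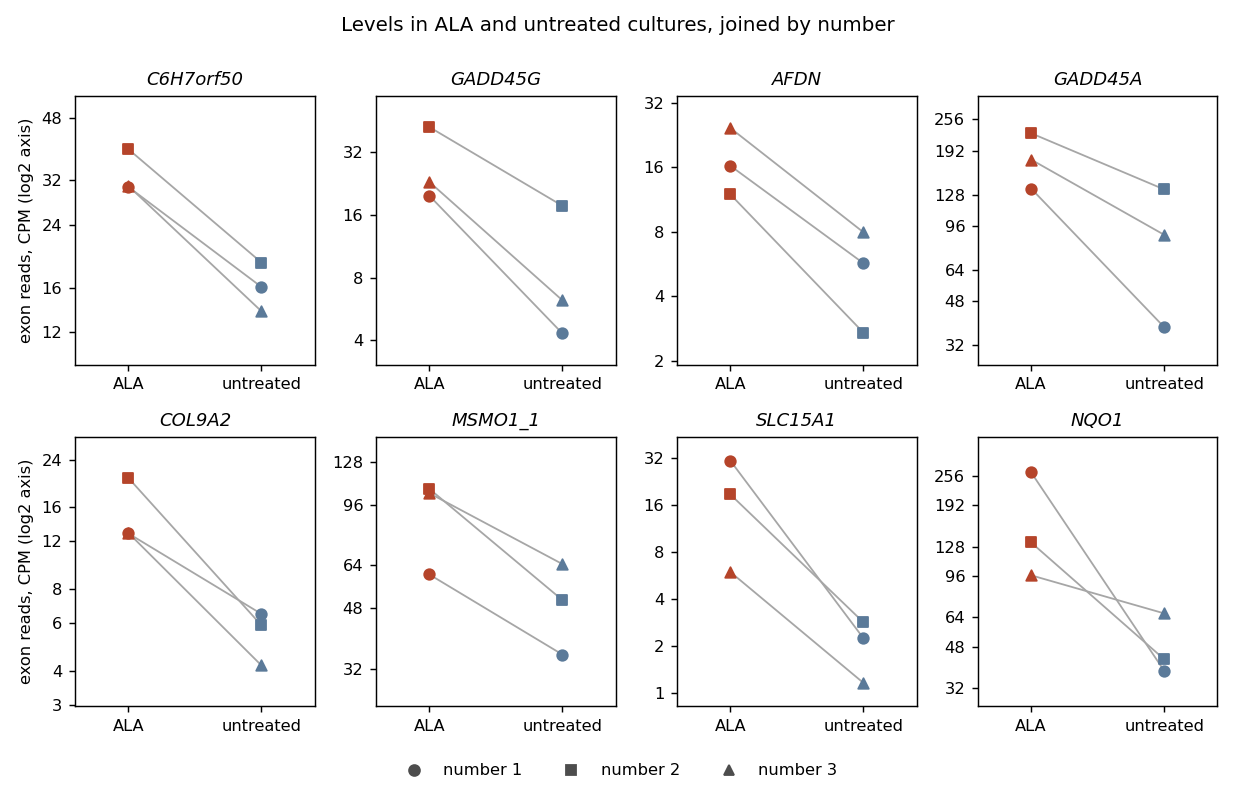
Exon reads in CPM (log2 axis) in ALA (left, red) and untreated (right, blue) cultures for the 6 called genes and for SLC15A1 and NQO1, with lines joining the libraries of 1 number. All 24 lines are higher at ALA; for MSMO1_1 the ALA library of number 1 (60.2 CPM) lies below the untreated library of number 3 (64.5 CPM).

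Each of the 6 calls depends on which libraries enter. None was called when any of the 3 ALA libraries or ConA with ALA 1 was left out. In the 12 fits without 1 library, GADD45G and C6H7orf50 were each called in 7 (highest adjusted p 0.121 and 0.103), and GADD45A (0.121), AFDN (0.121), COL9A2 (0.163) and MSMO1_1 (0.183) in 4. GADD45G and C6H7orf50 were further lost without untreated 1. GADD45A was further lost without untreated 1, untreated 3, ConA with ALA 3 or ConA 2. AFDN and MSMO1_1 were further lost without untreated 1, untreated 2, ConA with ALA 2 or ConA with ALA 3. COL9A2 was further lost without untreated 2, untreated 3, ConA with ALA 2 or ConA with ALA 3. The fold changes stayed above 0 in these fits, between 0.73 for MSMO1_1 and 1.98 for GADD45G.

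No gene for the enzymes that turn ALA into heme was called. Of 11 heme synthesis genes tested 0 were called, 5 had a fitted value above 0 and the median log2 fold change was −0.0034 (all genes −0.00366). As only 0.0449% of all genes were called, a count of 0 in this or a later list says nothing about that list. ALAS2 and the 6 later enzyme genes given here lay between −0.28 ± 0.24 (CPOX, coproporphyrinogen oxidase) and 0.28 ± 0.22 (UROS, uroporphyrinogen synthase), with adjusted p of at least 0.92. FECH, the ferrochelatase that inserts iron, had 17.6, 11.2 and 15.0 CPM with ALA and 20.4, 11.4 and 13.2 CPM in untreated cells, a fold change of −0.02 ± 0.19. The numbers differed from each other more than ALA from untreated.

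ALAS1 varied with the number. It had 428, 457 and 517 CPM with ALA, against 325, 701 and 1534 CPM in untreated cells. The 3 ALA libraries lay close together, whereas the untreated ones spread about them. The log2 ratios in numbers 1, 2 and 3 were 0.40, −0.62 and −1.57, and the fitted change was −0.70 ± 0.37 (adjusted p = 0.857). ALAS2, the red cell ALA synthase, had 55.3, 170 and 147 CPM with ALA and 80.5, 151 and 96.6 CPM in untreated cells (0.01 ± 0.29, adjusted p = 0.9997).

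**Figure D3:**
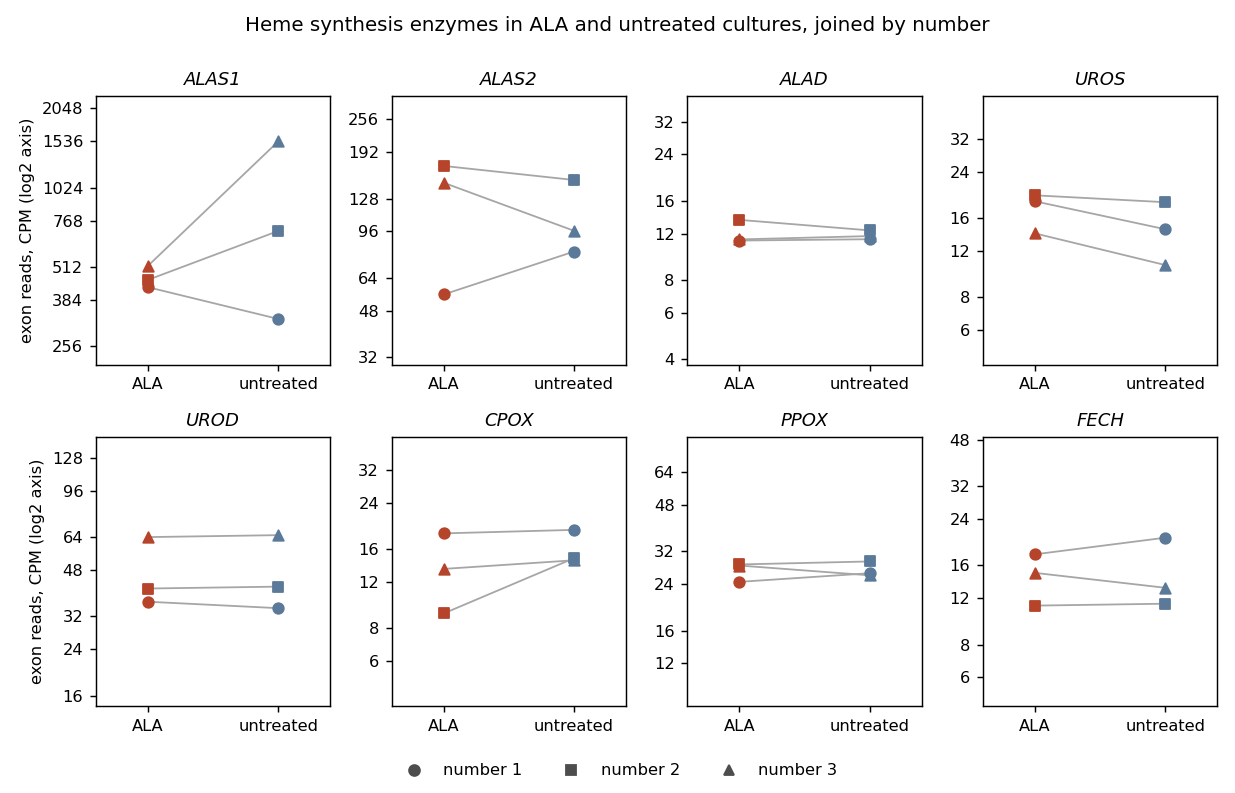
Exon reads in CPM (log2 axis, the same number of doublings in every panel) of ALAS1, ALAS2 and 6 later heme synthesis enzymes in ALA (left) and untreated (right) cultures, lines joining libraries of 1 number. ALAS1 ran from 428 to 517 CPM with ALA and from 325 to 1534 CPM in untreated cells; for the 6 later enzymes the lines are nearly level apart from CPOX in number 2 and UROS.

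SLC15A1 (PEPT1), a proton-coupled oligopeptide carrier that also takes up ALA, had the largest difference among the transport genes. It had 30.9, 18.8 and 5.98 CPM with ALA, against 2.25, 2.85 and 1.16 CPM in untreated cultures. All 3 ALA cultures were above the untreated ones, by log2 ratios of 3.71, 2.67 and 2.25. The reads behind this were 1111 with ALA and 114 without, and intron reads were 2.94, 3.08 and 2.56 CPM with ALA against 0.45, 1.29 and 0.349. The fitted change was 2.98 ± 0.53, which missed the threshold (adjusted p = 0.0999). It passed with limma-voom (0.00114), without a filter on low counts (0.0486), on total gene reads (0.0436), without ConA 3 (0.0299) and without number 3 (0.0427), and DESeq2 gave 0.608. In ConA cultures it had at most 0.345 CPM with ALA and 0.142 CPM without. The related carrier SLC15A2 had 1.03, 1.18 and 2.79 CPM with ALA and 1.03, 1.55 and 2.44 CPM in untreated cells (−0.05 ± 0.60). ABCG2, which exports porphyrins, had 8.36, 16.5 and 9.78 CPM with ALA and 8.69, 15.8 and 7.33 CPM in untreated cells (0.11 ± 0.32). Of 9 transport genes 0 were called (0.0449% of all genes were), with a median of 0.0391.

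Of 20 heme breakdown and iron genes tested 0 were called (0.0449% of all genes were). HMOX1 had 196, 255 and 98.4 CPM with ALA, against 202, 177 and 60.8 CPM in untreated cells. The groups overlapped, and the change was 0.36 ± 0.55 (adjusted p = 0.972). BLVRA, the biliverdin reductase that acts after heme oxygenase, had 45.8, 32.5 and 30.8 CPM with ALA, against 16.8, 21.1 and 24.7 CPM in untreated cells. These did not overlap (1.91% of all genes had ALA above in this way), and the change was 0.79 ± 0.19 (adjusted p = 0.278). BLVRA was picked by smallest p in the list, which favours such a split. FTL, the ferritin light chain, which shares most of its reads with copies (24.1% unique), was at 0.58 ± 0.18 (adjusted p = 0.535), and BACH1 at 0.35 ± 0.16 (adjusted p = 0.795). TFRC, the transferrin receptor, was at 0.09 ± 0.30. The median of the list was 0.263, and by number it was 0.70, 0.0431 and −0.0296.

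NRF2 target genes were mostly above 0, but by different amounts in each number. Of 27 genes listed 4 had no entry, 23 entries were tested (FTH1 is listed as 2 copies) and 0 were called. The fitted value was above 0 in 19 of 23 (82.6%), against 49.4% of all genes, with a median of 0.506. By number the medians were 0.929, 0.501 and −0.0864, with 20, 20 and 9 of the 23 above 0, and the fitted median without number 1 was 0.291. NQO1, the NAD(P)H quinone dehydrogenase, had 265, 133 and 96.6 CPM with ALA, against 37.9, 42.4 and 66.5 CPM in untreated cells. The groups did not overlap, although the log2 ratio was 2.80, 1.65 and 0.54 in numbers 1, 2 and 3. Its fitted change was 1.71 ± 0.40 (adjusted p = 0.474), and DESeq2 called it at 1.73 (adjusted p = 1.35e-05). OSGIN1, an oxidative stress-induced growth inhibitor, had 23.4, 21.5 and 21.5 CPM with ALA and 4.95, 12.5 and 11.9 CPM in untreated cells (1.23 ± 0.28, adjusted p = 0.206), and was called by DESeq2 (0.00872) and limma-voom (0.0269). The peroxiredoxin PRDX1 was higher by a like amount in each number, with 378, 653 and 654 CPM with ALA and 243, 468 and 459 CPM in untreated cells (0.54 ± 0.12, adjusted p = 0.191). Thioredoxin reductase TXNRD1 (0.61 ± 0.14, adjusted p = 0.237) and the aldose reductase AKR1B1 (0.51 ± 0.12, adjusted p = 0.237) were also higher in 3 of 3. PIR, pirin, a nuclear iron protein known as an NRF2 target in human cells and not on the list, had 52.7, 38.6 and 31.0 CPM with ALA, against 14.1, 15.0 and 20.1 CPM in untreated cells. Its change of 1.29 ± 0.22 fell just short (adjusted p = 0.0536). PIR was called in 10 alternatives, among them DESeq2 (8.6e-05), limma-voom (0.00596), no filter on low counts (0.0032) and total gene reads (0.0359).

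The order of the numbers in the NRF2 list was also seen in other lists, monocyte markers among them. The median log2 ratio of the 19 monocyte and macrophage markers tested was 0.84, −0.19 and −0.575 in numbers 1, 2 and 3, in the same order as the NRF2 medians, and 15, 4 and 6 of the 19 were above 0. FCN1 was at 0 in all 6 libraries. Genes above 0 also fell in count from number 1 to number 3 for heme breakdown and iron (17, 12 and 10 of 20) and glycolysis (14, 11 and 5 of 19). For G2 and M phase they rose (22, 23 and 26 of 27). The heme breakdown and iron list shares genes with the NRF2 list, both FTH1 copies among them, and CD163 with the monocyte list. Its order is therefore not a separate observation. In number 2, where the NRF2 median was 0.501, the monocyte median was below 0. The part of monocytes in these differences was not tested. In such mixed cells, fewer cells of a type and less RNA per cell cannot be told apart.

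Genes of mitosis mostly had fitted values above 0. Of 27 G2 and M phase genes 0 were called. The fitted value was above 0 in 25 of 27 (92.6%, against 49.4% of all genes), 20 were higher in all 3 numbers (14.8% of all genes were) and the median was 0.649. Medians by number were 0.316, 0.563 and 0.839. CCNB2, a mitotic cyclin, had 1.32, 1.18 and 4.66 CPM with ALA, against 0.36, 0 and 1.05 CPM in untreated cells (2.33 ± 0.56, adjusted p = 0.261). TPX2, a spindle assembly factor, had 4.01, 6.02 and 15.4 CPM with ALA and 2.21, 2.46 and 3.84 CPM in untreated cells (1.49 ± 0.40, adjusted p = 0.443). For both the ALA cultures were all above the untreated ones (1.91% of all genes were), highest in number 3. Both were picked by smallest p in the list, which favours such a split, so nothing is read from it. The proliferation antigen MKI67 had 16.2, 29.3 and 96.0 CPM with ALA and 10.3, 5.04 and 53.7 CPM in untreated cells (1.23 ± 0.43, adjusted p = 0.73). CENPF, a kinetochore protein, was at 1.12 ± 0.33 and topoisomerase TOP2A at 0.94 ± 0.29 (adjusted p = 0.519 and 0.566).

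Genes of DNA replication had a median near that of all genes. Of 26 S phase genes 0 were called, 16 were above 0 (49.4% of all genes were) and the median was 0.0443 (0.0936, −0.09 and 0.034 by number). CDT1, which licenses replication origins, had 14.2, 21.9 and 11.6 CPM with ALA, against 24.3, 24.1 and 21.1 CPM in untreated cells (−0.58 ± 0.16, adjusted p = 0.443). MCM10 and CDC45, which act at the replication fork, were at 0.72 ± 0.35 and 1.08 ± 0.54. The summed level of the S phase list was 681, 809 and 786 CPM with ALA and 678, 832 and 786 CPM in untreated cells. That of the G2 and M list was 253, 314 and 473 CPM with ALA and 256, 255 and 308 CPM in untreated cells, so in number 1 it did not differ. The difference between the 2 lists was not tested.

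Of 17 genes tested on the p53 target list the 2 called were GADD45A and GADD45G, already described (0.0449% of all genes were called). The list was written with earlier results of these data known, and p53 activity was not tested. The fitted value was above 0 in 13 of the 17 (76.5%, against 49.4% of all genes), with a median of 0.21. The cell cycle inhibitor CDKN1A (p21) had 31.4, 17.2 and 23.0 CPM with ALA, against 17.4, 14.7 and 18.03 CPM in untreated cells (0.48 ± 0.18, adjusted p = 0.71). MDM2, the ubiquitin ligase of p53, was at 0.29 ± 0.14 (adjusted p = 0.817).

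Cholesterol synthesis genes mostly had fitted values above 0. Of 22 entries tested 1, MSMO1_1, was called (0.0449% of all genes were). The fitted value was above 0 in 18 (81.8%, against 49.4% of all genes), 11 were higher in all 3 numbers (14.8% of all genes were) and the median was 0.402. MSMO1 is the oxygenase that removes methyl groups from sterol intermediates. MSMO1_1, on chromosome 15 from 61293769 to 61307285 (plus strand, 6 exons), had 60.2, 107 and 104 CPM with ALA, against 35.2, 50.7 and 64.5 CPM in untreated cells. It was higher in 3 of 3 numbers although the groups overlap (0.84 ± 0.13, adjusted p = 0.0326). It overlaps KLHL2 on the same strand, and 92.4% of its exon reads were unique. With intron reads included the fold change was 0.72 ± 0.12 and the call was lost (adjusted p = 0.0611). Squalene epoxidase SQLE had 85.2, 54.4 and 36.1 CPM with ALA and 47.2, 17.6 and 34.5 CPM in untreated cells (0.83 ± 0.22, adjusted p = 0.443). FDFT1, squalene synthase, was at 0.50 ± 0.13 and INSIG1, a sterol sensor of the endoplasmic reticulum, at 0.50 ± 0.14 (adjusted p = 0.369 and 0.444). In both, every ALA culture was above every untreated one (1.91% of all genes were). They were picked by smallest p in the list, which favours this, so nothing is read from it. By number the list medians were 0.40, 0.661 and 0.142.

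**Figure D4:**
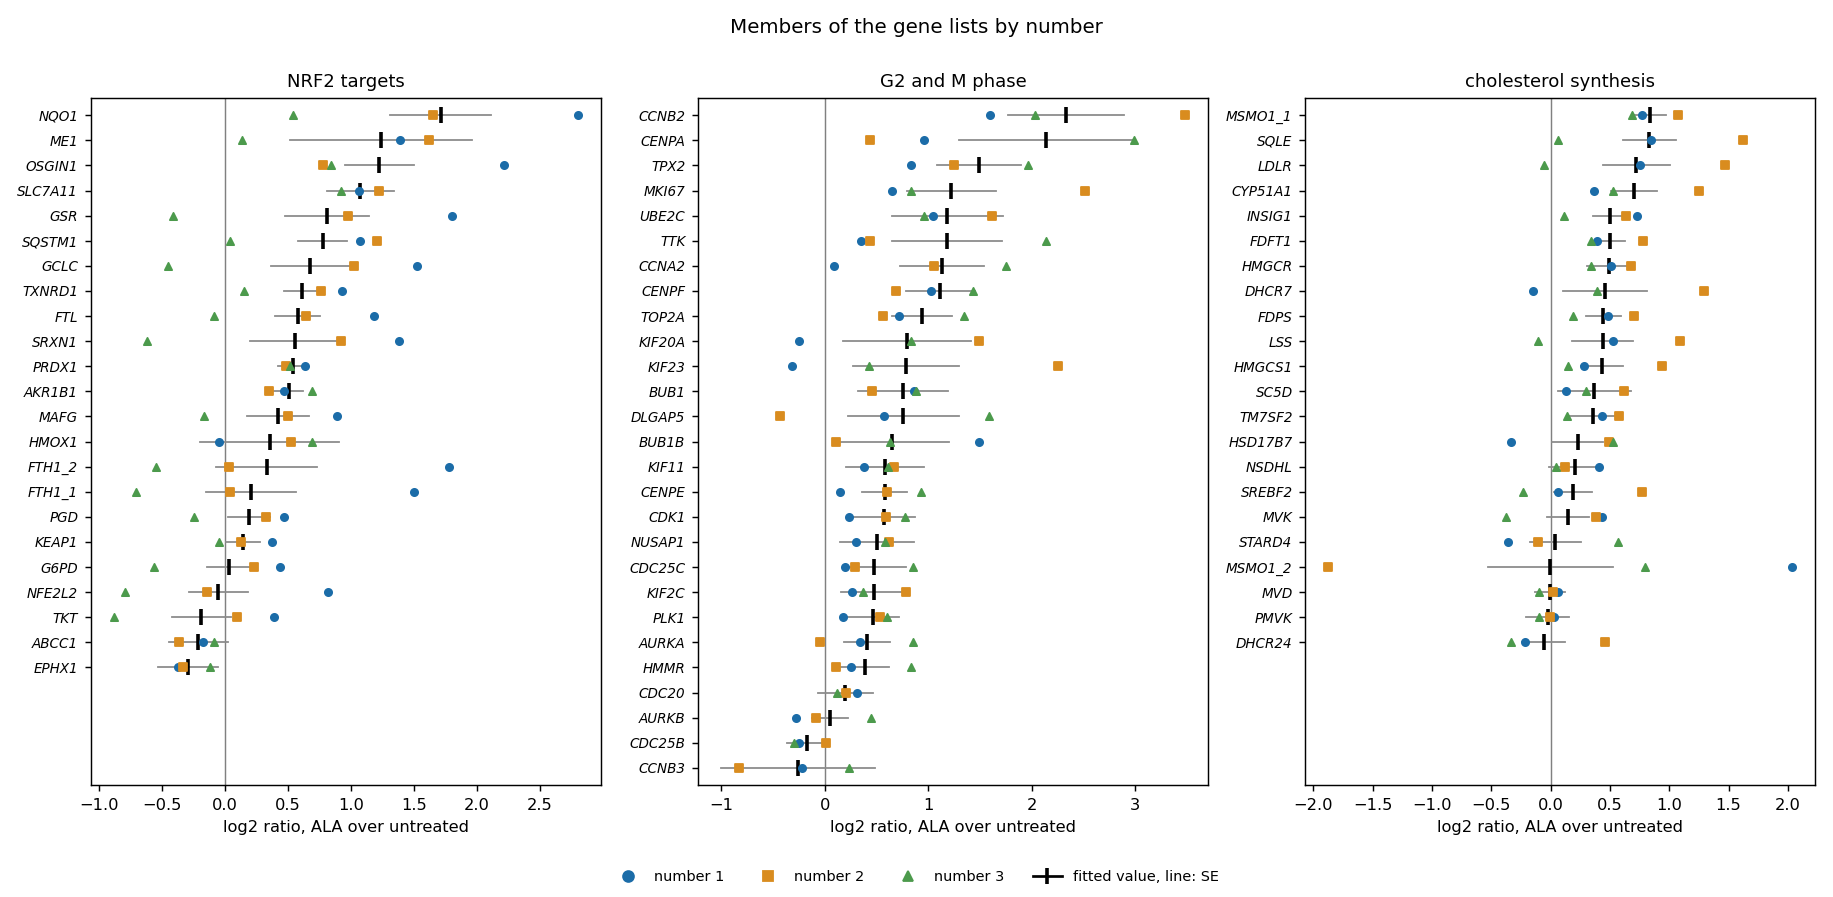
Log2 ratio of ALA over untreated (x axis) for each tested gene of the NRF2, G2 and M phase and cholesterol synthesis lists, by number (symbols), with the fitted value (black tick) and its SE (line). For the NRF2 list the symbols of number 3 lie furthest left in most rows (median −0.0864), and for the G2 and M list those of number 3 furthest right (median 0.839).

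Among the other genes with the smallest p that moved one way in all 3 numbers, 10 were higher, with log2 fold changes of 0.54 to 2.98 and adjusted p of 0.0536 to 0.194. PIR, SLC15A1 and PRDX1 are given above. NETO2, an auxiliary subunit of kainate receptors, had 21.0, 19.4 and 10.2 CPM with ALA and 3.19, 8.92 and 1.51 CPM in untreated cells (2.02 ± 0.38, adjusted p = 0.131). The AP-1 subunit FOSL1 had 4.18, 1.24 and 2.56 CPM with ALA and 1.08, 0.582 and 0.582 CPM in untreated cells (1.78 ± 0.34, adjusted p = 0.0999). MYB, a transcription factor of blood progenitors, had 13.2, 16.1 and 10.8 CPM with ALA and 5.26, 5.62 and 6.40 CPM in untreated cells (1.18 ± 0.24, adjusted p = 0.139). In these 3 every ALA culture was above every untreated one (1.91% of all genes were). The choice by smallest p and by 1 direction favours such genes, so nothing is read from this. TEX14, required for germ cell bridges in mice, was at 1.06 ± 0.18 (adjusted p = 0.0536). It overlaps 8 annotated genes on its strand. The fatty acid desaturase FADS1, which overlaps FADS2 and had 40.8% unique reads, was at 0.83 ± 0.16, the spindle protein TACC3 at 0.77 ± 0.16 and the deubiquitinase UCHL1 at 1.02 ± 0.22 (adjusted p = 0.11 to 0.194).

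Of genes lower with ALA none passed. The 10 with the smallest p had log2 fold changes of −1.98 to −0.50 and adjusted p of 0.11 to 0.369, and in 6 of them every ALA culture lay below every untreated one (2.36% of all genes did). Choosing by p and by 1 direction in all 3 numbers favours such genes, so nothing is read from that count. RUNX3, a transcription factor of CD8 T cells, had 56.4, 61.6 and 46.5 CPM with ALA, against 97.7, 84.3 and 68.4 CPM in untreated cells (−0.60 ± 0.12, adjusted p = 0.139). ZNF683 (Hobit), a factor of tissue-resident lymphocytes, had 10.6, 5.50 and 3.34 CPM with ALA and 36.4, 9.76 and 10.3 CPM in untreated cells (−1.46 ± 0.31, adjusted p = 0.16). CALHM6, of a channel family and inducible by interferon gamma, had 36.0, 51.0 and 55.6 CPM with ALA and 54.2, 86.8 and 120 CPM in untreated cells (−0.84 ± 0.16, adjusted p = 0.11). SKI, a repressor of TGF-beta signalling, was at −0.64 ± 0.13, and PLAAT4 at −0.59 ± 0.14 (adjusted p = 0.139 and 0.24). IFGGB2 was at −0.51 ± 0.12, and the glycosyltransferase GALNT10 at −0.71 ± 0.18 (adjusted p = 0.261 and 0.369). ZC3H4 was at −0.66 ± 0.16 and RAB11FIP4 at −0.50 ± 0.13 (adjusted p = 0.299 and 0.341).

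Complement C1q, which monocytes and macrophages make, was the lowest of these. C1QB had 3.56, 2.748 and 0.854 CPM with ALA, against 11.4, 8.92 and 5.18 CPM in untreated cells (−1.98 ± 0.48, adjusted p = 0.261). C1QA had 44.4, 37.8 and 7.45 CPM with ALA and 44.0, 101 and 37.0 CPM in untreated cells (−1.17 ± 0.34, adjusted p = 0.535), and C1QC was at −1.69 ± 0.64 (adjusted p = 0.735). The scavenger receptor MARCO, on the same marker list, went the other way at 0.73 ± 0.23 (adjusted p = 0.535). The list as a whole had 10 of 19 above 0 and a median of 0.032.

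T cell markers were mostly below 0. Of 20 tested 17 had a negative fitted value (49.4% of all genes had one above 0) and 8 were lower in all 3 numbers (16% of all genes were). The median was −0.231, with 0 called. The numbers differed, with 1, 10 and 6 of the 20 above 0 in numbers 1, 2 and 3. CD8A had 47.5, 31.9 and 24.9 CPM with ALA, against 107, 46.4 and 37.8 CPM in untreated cells (−0.77 ± 0.23, adjusted p = 0.535). CD7 was at −0.45 ± 0.14, the transcription factor TCF7 at −0.46 ± 0.17 and the costimulatory receptor CD28 at 0.56 ± 0.20 (adjusted p = 0.535, 0.66 and 0.647). The summed T cell list was 3298, 3517 and 2849 CPM with ALA and 4334, 3604 and 2799 CPM in untreated cells, lower with ALA in numbers 1 and 2. The NK and cytotoxic list summed to 302, 224 and 255 CPM with ALA and 463, 209 and 209 CPM in untreated cells. The difference on that list thus stood in number 1, in which ALA library 1 also had the highest monocyte sum, and the part of cell composition was not tested.

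In resting cells the cytokine and cytokine receptor genes named whatever their result showed no shared direction. On the T cell cytokine list 8, 10 and 10 of 17 genes tested were above 0 in numbers 1, 2 and 3. The smallest p there were those of LTA (0.47 ± 0.20) and IL13 (1.94 ± 0.72), both higher in 3 of 3 numbers (adjusted p = 0.754 and 0.756). IL2RA was at 0.29 ± 0.35, IFNG at −0.32 ± 0.60, TNF at −0.01 ± 0.24 and IL10 at 0.13 ± 0.34 (adjusted p of at least 0.962). IL6 had 14.1, 8.37 and 44.7 CPM with ALA and 0.63, 3.88 and 35.9 CPM in untreated cells, with log2 ratios of 4.25, 1.09 and 0.31 (1.15 ± 0.99, adjusted p = 0.935). IDO1, which degrades tryptophan, had 139, 189 and 158 CPM with ALA and 79.7, 144 and 363 CPM in untreated cells. As for ALAS1, the ALA cultures lay close together and the untreated ones spread about them (−0.15 ± 0.47, adjusted p = 0.99).

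**Figure D5:**
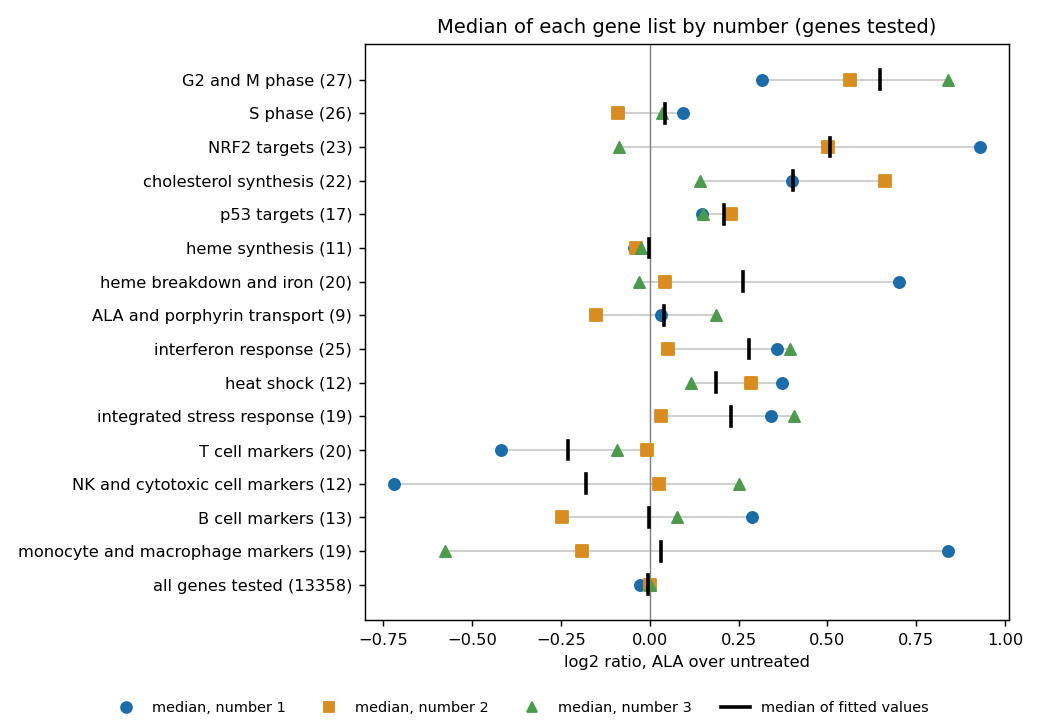
Median log2 ratio (ALA over untreated, x axis) of each gene list in numbers 1, 2 and 3 (symbols) and the median of the fitted values (black bar), with the number of genes tested in brackets. The G2 and M list lay above 0 in all 3 numbers (0.316, 0.563 and 0.839), while the NRF2 (0.929, 0.501, −0.0864) and monocyte (0.84, −0.19, −0.575) lists were highest in number 1 and lowest in number 3.

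Log2 ratios over all genes tested correlated weakly between the 3 numbers. The values were 0.0782 for 1 and 2, 0.0568 for 1 and 3 and 0.0918 for 2 and 3 (across genes, which are not independent replicates). Most of these genes need not respond to ALA, so the values do not show how far a response was shared. Genes higher in all 3 numbers made up 14.8% of those tested and genes lower in all 3 made up 16%. In 255 genes (1.91%) all ALA cultures were above all untreated ones, and in 315 (2.36%) all were below.

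Whether ALA acted differently when ConA was present was tested as the difference of the 2 effects. Of 13358 genes 0 passed (0%) with edgeR, with 1004 at an unadjusted p under 0.05 (7.52%). DESeq2 called 40 and limma-voom 5. The difference for MSMO1_1 was −0.99 ± 0.19 (unadjusted p = 9.5e-05, adjusted p = 0.161), as it had 100, 154 and 174 CPM with ConA and ALA and 95.1, 210 and 182 CPM with ConA alone. The called genes were picked by their rise in resting cells, which is subtracted here, so the choice favours values below 0. The difference was below 0 in 6 of 6 called genes. Of the other genes of smallest p it was below 0 in 9 of 10 higher and 2 of 10 lower ones. Nothing is read from its sign in genes picked this way. GADD45A had 59.3, 106 and 102 CPM with ConA and ALA, against 22.1, 58.6 and 45.5 CPM with ConA alone, and the difference of the 2 effects was −0.03 ± 0.25 (adjusted p = 0.985). GADD45G had 16.8, 34.03 and 23.2 CPM with ConA and ALA and 8.12, 22.8 and 5.76 CPM with ConA alone (−0.57 ± 0.35, adjusted p = 0.766). For the G2 and M list the median of this difference was −1.06, with 0 of its genes called. The ALA effect in resting cells, mostly above 0 on this list, is subtracted in that difference. A median below 0 is thus favoured and nothing is read from it.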

How the data were processed

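Per the labels' protocols, poly(A) RNA was made into libraries with a NEBNext Ultra II kit and read on a NextSeq 500 as paired ends of 75 bp. CanFam3.1 and bcl2fastq are named in the submitters' processing notes. Aligner, counting tool and use of strand were not given in the sources used here. The authors deposited, per the file headers, exon, intron and total gene reads as counts for 29822 genes, and TPM. Only counts entered the tests; the TPM values, which the authors deposited, were not printed.

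The test was edgeR's robust quasi-likelihood F-test (edgeR 4.0.16, R 4.3.3) on total exon counts, with TMM scaling and filterByExpr. All 12 libraries entered 1 model with 4 group means and the number as a block, and p-values were adjusted over the 13358 genes kept. The titles give each group the same numbers. Deviations from the group means of the 18 same-number pairs correlated at 0.376 to 0.748, those of other pairs at −0.498 to 0.206, so the block is used throughout. The SE after ± is the absolute log2 fold change divided by the square root of F in this model of all 12 libraries. Levels are CPM on TMM-scaled library sizes. Ratios by number use log2 CPM with a prior count of 2, and intron CPM are intron reads on the same library sizes. Depth was 15131294 to 17962226 exon reads; as reads carry no molecular identifiers, precision is given by the spread between libraries. In 1 simulated set of 13358 genes, counts were drawn from the fitted dispersions. In it 100 genes were changed 2-fold and 100 others 4-fold at once, and genes of low counts in untreated cells were not picked. The fit recovered 52% and 88% of them, and 6.67% of its calls were unchanged genes. With only 6 calls in the real data the adjusted threshold is stricter there, so these shares need not hold for this comparison. Alternatives used no block, DESeq2 1.42.0, limma-voom (limma 3.58.1), other scalings, filters and read types, and left out libraries or numbers.

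The members, gene lists and tests were chosen with earlier results of these data known, so no list was tested as a set. Named are: every called gene with a symbol; of the others that averaged 20 counts or more in the higher group and had 1 direction in all 3 numbers, the 10 smallest p each way; from each list described, at most 4 genes, those of smallest p; and the heme enzymes, HMOX1, TFRC, NQO1, SLC15A1, SLC15A2, ABCG2, IL2RA, IFNG, TNF, IL10, IL6, MKI67 and IDO1. A gene with a _1 or _2 suffix is 1 of several copies listed under a symbol. Some genes these rules take are not reported here.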

Additional observations from a re-analysis of the deposited data

How the results depend on the processing

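The count of called genes depended on the model. Against 6 with the block, it was 0 with no replicate block, 65 with DESeq2 (51 higher, 14 lower), 28 with limma-voom (21 higher, 7 lower), 18 with no filter and 0 with the 6 libraries alone; leaving out libraries or numbers gave 0 to 18. DESeq2 size factors, upper quartile scaling, a filter at 50 counts on average, unique exon reads and no mitochondrial or hemoglobin genes gave 6 to 8, including the 6, and total gene reads 9, with 2 of the 6 (AFDN and GADD45G). For the difference of the effects with and without ConA, against 0, DESeq2 gave 40, limma-voom 5, no filter 9, total gene reads 3 and leaving out libraries or numbers 0 to 21. The heme synthesis median, −0.0034, was 0.011 with DESeq2 and with its size factors, −0.0293 with limma-voom, −0.087 on total gene reads and −0.123 to 0.0463 on leaving out. On leaving out, medians were 0.348 to 0.907 for G2 and M, −0.112 to 0.17 for S phase and 0.18 to 0.313 for p53 targets.

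Of 64 named genes not called as reported 26 passed in at least 1 alternative, 25 with DESeq2 and 11 with limma-voom. Of all 70 named genes 54 kept their direction in every alternative. On total gene reads COL9A2 turned to −0.17, ALAS2 to −0.039, ALAD to −0.09, UROD to −0.09, FECH to 0.057, SLC15A2 to 0.64, TNF to 0.045 and IL10 to −0.017. PPOX turned to 0.01 with DESeq2 or its size factors, TNF to 0.071 with limma-voom and 0.0026 with DESeq2 size factors, TFRC to −0.062 with limma-voom, ALAS2 to −0.0014 with upper quartile scaling and IDO1 to 0.0098 with the 6 libraries.
Leaving out libraries or numbers turned the sign of ABCB6 (−0.0074 to 0.43), ABCG2 (−0.15 to 0.45), ALAD (−0.12 to 0.12), ALAS2 (−0.30 to 0.49), FECH (−0.12 to 0.084), HMOX1 (−0.054 to 0.60), IDO1 (−0.59 to 0.56), IFNG (−1.04 to 0.74), IL10 (−0.43 to 0.54), IL2RA (−0.25 to 0.54), PPOX (−0.17 to 0.076), SLC15A2 (−0.37 to 0.23), TFRC (−0.31 to 0.35), TNF (−0.25 to 0.26), UROD (−0.10 to 0.15). The ALA minus untreated differences in mitochondrial share (0.701 points), exon reads (−219000) and genes with at least 10 reads (−21.3) ran from −0.644 to 1.501 points, −1314000 to 1080000 and −88 to 109.5 on leaving out a number. The cause of these changes was not tested. Levels near or under 1 CPM, such as CCNB2 in untreated cells, rest on few reads.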

Other observations

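Of 25 interferon-stimulated genes tested 0 were called. The fitted log2 fold change was above 0 in 22 (49.4% of all genes were), 13 were higher in all 3 numbers (14.8% of all genes were) and the median was 0.278. ISG15, a ubiquitin-like antiviral protein, had 228, 503 and 252 CPM with ALA and 121, 449 and 118 CPM in untreated cells (0.71 ± 0.23, adjusted p = 0.634). The exonuclease ISG20 was at 0.44 ± 0.13 and the membrane protein BST2, which tethers viruses, at 0.38 ± 0.14 (adjusted p = 0.514 and 0.665).

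Of 12 heat shock genes 9 (75%, against 49.4% of all genes) were above 0 and 7 higher in all 3 numbers (14.8% of all genes were), with a median of 0.186 and 0 called. The chaperone partner BAG3 had 3.23, 4.97 and 1.94 CPM with ALA and 0.99, 1.29 and 1.16 CPM in untreated cells (1.47 ± 0.39, adjusted p = 0.369), and HSPA5, of the endoplasmic reticulum, was at 0.44 ± 0.14 (adjusted p = 0.535). Of 19 integrated stress response genes 16 were above 0 (84.2%, median 0.229, 0 called), with DDIT3 at 0.62 ± 0.20 and ATF4 at 0.41 ± 0.14 (adjusted p = 0.548 and 0.596). The chemokine CCL3 had 97.7, 84.2 and 126 CPM with ALA and 40.0, 67.1 and 60.5 CPM in untreated cells (0.88 ± 0.24, adjusted p = 0.474), and CCL5 was at −0.42 ± 0.15 (adjusted p = 0.663). MMP9, a granulocyte and macrophage protease, had 249, 51.4 and 2243 CPM with ALA and 19.0, 60.1 and 314 CPM in untreated cells (2.23 ± 0.88, adjusted p = 0.784).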
